A study of Mus musculus with 15 samples.

Results

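The genes described here are 10 mouse genes that encode surface proteins by which myeloid cells stimulate or restrain T cells: the PD-1 ligands Cd274 and Pdcd1lg2, the B7 family members Cd80, Cd86, Icosl and Cd276, the TNF receptor family member Cd40, the TNF family ligand Tnfsf9, and the checkpoint molecules Havcr2 and Pvr. They were chosen by symbol, with earlier results of these data known, among the 22180 genes that had a probe set naming a single gene. Each of the 10 had exactly 1 such probe set. RNA of mouse myeloid cells was measured on 15 single-colour Affymetrix arrays, 1 array per sample and 3 arrays in each of 5 groups. All values are log2 RMA signals, so a difference of 1 is a doubling. A level of one gene cannot be set against a level of another on this scale, so differences of a single gene between arrays are compared. For Cd274 with Pdcd1lg2 and Cd86 with Cd80, the within-array difference is compared between groups as well.

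The groups RB and GFW carry identical labels: lineage-negative CD11b+CD34+ spleen cells of C57Bl/6 mice treated with G-CSF, which moves progenitors and myeloid cells out of the marrow. The lineage sort removed CD4+, CD8+, Ly6G+, B220+ and Ter119+ cells. GFE holds such cells after 3 days in culture with Flt3 ligand and SCF, both cytokines that support progenitors. GFK holds the same sort from G-CSF-treated mice that are labelled iNOS knockout, and their strain label is C57Bl/6 too. MDSC, myeloid-derived suppressor cells, are Ly6C+CD11b+ cells grown from the bone marrow of C57Bl/6 mice with 3 cytokines, namely IL-13, GM-CSF and G-CSF. G-CSF exposure is thus shared by all 5 groups, in the animal or in the dish. The labels give no dose of G-CSF, no age of the mice and no statement that arrays of a group came from separate mice, so the p-values speak for the scatter among these arrays, part of which may be technical.

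T cells need a second signal besides the antigen receptor, and they are held back by inhibitory receptors. CD80 and CD86 bind both CD28, which stimulates, and CTLA-4, which inhibits, while PD-L1 and PD-L2 bind the inhibitory receptor PD-1. Suppressive myeloid cells are known for carrying PD-L1, and maturing antigen-presenting cells for raising CD80, CD86 and CD40.

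The labels were checked against marker genes. Nos2, the gene of iNOS, showed no drop under the knockout label: log2 values of GFK arrays were 8.84, 8.91 and 8.92, against 8.09, 8.32 and 8.43 on GFW arrays (difference 0.61, adjusted p = 0.0125). A probe set that lies outside a deleted stretch would not test a knockout, so GFK is called the arrays labelled knockout. Ly6g, whose protein the sort removed, had a mean log2 value of 12.19 on GFW and 12.08 on GFK arrays, against 6.28 on RB arrays. Cd34 had a mean of 5.92 on RB arrays and 7.19 on GFW arrays, against 11.28 on cultured arrays. RB and GFW therefore differed in markers although their labels match, and RB, MDSC and the other 3 groups each have their own title prefix, so that the group and whatever the prefix stands for cannot be told apart in comparisons across prefixes. In RNA of many cells, fewer cells of a type cannot be told apart from less RNA per cell.

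All 10 members passed the filter on low values, a level above the 40th percentile of the array (5.34 to 5.58) on at least 3 arrays. For 9 members this held on all 15 arrays, and for Pvr on 13 arrays.

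**Figure D1:**
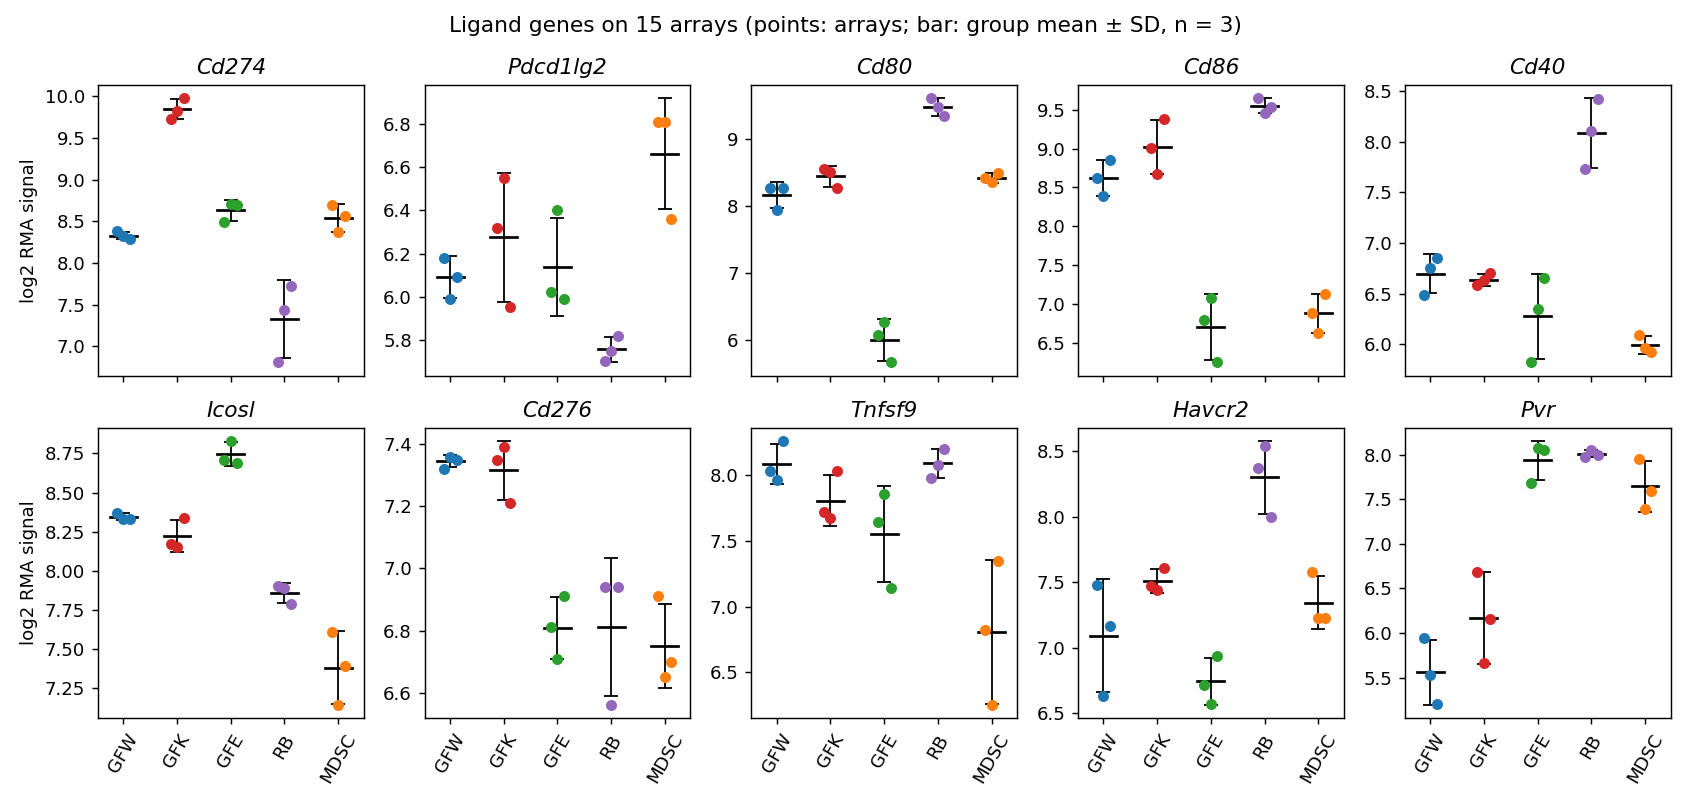
Log2 RMA signal of each of the 10 members on each of the 15 arrays, by group; points are arrays, bars are group means with SD (n = 3), and each panel has its own scale. Cd274 is highest on arrays labelled knockout (mean 9.85), Cd80 lowest on cultured arrays (5.99), Cd86, Cd80, Cd40 and Havcr2 highest on RB arrays, and Pvr lowest on GFW and knockout-labelled arrays.

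Cd274 and Pdcd1lg2, which encode the PD-1 ligands PD-L1 and PD-L2, both lie on chromosome 19. Because this pair shares a receptor and differed in its pattern over the groups, the 250 bases before each start site are shown, from RefSeq on GRCm38.p6, both on the plus strand, at chr19:29367188-29367437 for Cd274 and chr19:29410669-29410918 for Pdcd1lg2. Capitals mark a match to the NF-kB consensus.
Cd274: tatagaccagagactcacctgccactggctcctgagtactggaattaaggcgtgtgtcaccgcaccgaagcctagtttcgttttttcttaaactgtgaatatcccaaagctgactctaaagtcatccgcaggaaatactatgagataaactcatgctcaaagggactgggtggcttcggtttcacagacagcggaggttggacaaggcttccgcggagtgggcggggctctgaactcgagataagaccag
Pdcd1lg2: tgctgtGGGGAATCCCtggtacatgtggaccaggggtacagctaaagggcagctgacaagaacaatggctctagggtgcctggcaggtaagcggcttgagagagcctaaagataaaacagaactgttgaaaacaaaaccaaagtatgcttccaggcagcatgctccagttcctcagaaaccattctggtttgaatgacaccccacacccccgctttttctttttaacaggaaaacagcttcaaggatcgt

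4 motifs were searched on both strands of these windows: the interferon gamma activated site TTCNNNGAA, the core of the interferon-stimulated response element, the NF-kB consensus and the PU.1 site GAGGAAGT. The Cd274 window held none of them, and the Pdcd1lg2 window held the NF-kB consensus at positions -244 to -235 from the start site. Of 32817 windows of the same length, 7.01% held the first motif, 2.97% the second, 3.90% the NF-kB consensus and 2.44% the PU.1 site. RefSeq entries were found for 6 of the 10 members, and among the other windows that of Havcr2 held the PU.1 site at positions -8 to -1.

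Cd274 was highest on the arrays labelled knockout, at 9.73, 9.83 and 9.98. GFW arrays had 8.38, 8.32 and 8.29, cultured arrays 8.49, 8.71 and 8.70, MDSC arrays 8.70, 8.37 and 8.56, and RB arrays 6.81, 7.44 and 7.73. The knockout-labelled arrays lay above all 12 others and the RB arrays below all 12 others, while the 3 groups between them lay close together. The knockout-labelled mean exceeded the cultured mean by 1.21 (adjusted p = 1.66e-05). Cultured against MDSC (adjusted p = 0.757) and MDSC against GFW (adjusted p = 0.293) did not pass. GFW exceeded RB by 1.0 on the log2 scale, a 2.0-fold difference (adjusted p = 0.000207). Cd274 was 2.86-fold higher on knockout-labelled than on GFW arrays (log2 difference 1.52, SE 0.18, adjusted p = 0.000245) and 2.33-fold higher on MDSC than on RB arrays (adjusted p = 2.67e-05).

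Pdcd1lg2 moved over a narrower range, 1.87-fold between the highest and lowest group mean against 5.74-fold for Cd274. Its arrays ran only from 5.70 to 6.81, not far above the 40th percentile (5.34 to 5.58). RMA compresses differences of such dim probe sets, so the 2 ranges do not compare amounts of RNA. MDSC arrays had 6.81, 6.81 and 6.36, knockout-labelled arrays 6.32, 6.55 and 5.95, cultured arrays 6.02, 6.40 and 5.99, GFW arrays 6.18, 5.99 and 6.09, and RB arrays 5.70, 5.75 and 5.82. RB arrays lay below all others, and MDSC arrays overlapped those labelled knockout. MDSC exceeded RB by 0.91 (SE 0.16, adjusted p = 0.000196) and GFW by 0.57 (adjusted p = 0.00587). The latter fell to 0.31 (adjusted p = 0.0980) when each array was centred on its median over the genes tested, a scaling added after the data were seen. Knockout-labelled and GFW arrays differed by 0.18 (adjusted p = 0.741).

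Within an array, the difference Cd274 minus Pdcd1lg2 was larger by 1.33 on knockout-labelled than on GFW arrays, with no overlap. It was smaller on RB than on GFW arrays, with a change of -0.67. The exact permutation p was 0.1 for each, 2-sided, which is the smallest that 3 arrays against 3 allow. Adjusted over the 10 tests made of such within-array differences it was 0.167. As Pdcd1lg2 is dim and its differences may be compressed, these changes may in part follow Cd274 alone, which was not tested.

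Cd80 and Cd86 encode the 2 ligands that CD28 and CTLA-4 share. Cd80 was highest on RB arrays, at 9.61, 9.48 and 9.35. MDSC arrays had 8.42, 8.35 and 8.49, knockout-labelled arrays 8.55, 8.51 and 8.26, and GFW arrays 8.27, 7.94 and 8.27, and cultured arrays had only 6.07, 6.26 and 5.66. RB arrays lay above and cultured arrays below every other array, and the groups between them were not separated by the test. Cd80 fell 4.49-fold in culture against GFW (log2 difference -2.17, SE 0.15, adjusted p = 3.02e-09). It was 2.49-fold higher on RB than on GFW arrays (adjusted p = 2.56e-06) and 2.08-fold lower on MDSC than on RB arrays (adjusted p = 1.99e-05).

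Cd86 was high on RB arrays (9.65, 9.46 and 9.54), on knockout-labelled arrays (9.01, 8.68 and 9.38) and on GFW arrays (8.62, 8.39 and 8.85). It was low on MDSC arrays (6.88, 6.63 and 7.13) and on cultured arrays (6.79, 7.08 and 6.25). The 9 arrays of freshly sorted cells did not overlap with the 6 arrays of cells grown in a dish. Cd86 fell 3.77-fold in culture against GFW (log2 difference -1.91, SE 0.21, adjusted p = 7.05e-07). On MDSC arrays it was 6.36-fold lower than on RB (adjusted p = 2.90e-08) and 3.34-fold lower than on GFW arrays (adjusted p = 2.43e-06). RB exceeded knockout-labelled arrays by 0.53 (adjusted p = 0.0454). MDSC and cultured arrays did not pass against each other (adjusted p = 0.581), nor did knockout-labelled against GFW arrays (0.40, adjusted p = 0.485).

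The 2 ligands were low together in culture, but on MDSC arrays Cd86 was lower than on GFW arrays while Cd80 differed by 0.26 (adjusted p = 0.139). The within-array difference Cd86 minus Cd80 was lower on MDSC than on GFW arrays (a change of -2.00) and changed by -1.61 against RB, with no overlap in either case. The exact permutation p was 0.1 for both, the smallest this design allows, and 0.167 after adjustment. In culture the same difference changed by 0.25 against GFW, with no overlap and the same p.

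Icosl encodes the ligand of ICOS, a co-stimulatory receptor of activated T cells. Its levels were 8.71, 8.83 and 8.69 on cultured arrays, 8.37, 8.33 and 8.33 on GFW, 8.17, 8.15 and 8.34 on knockout-labelled, 7.90, 7.89 and 7.79 on RB, and 7.61, 7.14 and 7.39 on MDSC arrays. Cultured arrays lay above all others and MDSC arrays below all others. MDSC minus GFW was -0.97, a 1.95-fold difference (adjusted p = 2.32e-06), and RB lay 1.40-fold below GFW (adjusted p = 0.00242). The 1.32-fold rise in culture (0.40, SE 0.12, adjusted p = 0.00658) lost its call under 2 other scalings, with 0.23 (adjusted p = 0.0604) after a second quantile normalization and 0.08 (adjusted p = 0.483) after centring on the median over genes tested.

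Cd276 encodes B7-H3, whose effect on T cells has been described as both stimulating and inhibiting. It varied least of the members, 1.51-fold over the group means. GFW arrays had 7.32, 7.36 and 7.35 and knockout-labelled arrays 7.35, 7.39 and 7.21. All 9 other arrays lay between 6.56 and 6.94, below those 6. Cultured, RB and MDSC arrays were 1.45-fold (adjusted p = 0.000947), 1.45-fold (adjusted p = 0.00157) and 1.51-fold (adjusted p = 0.000452) below GFW. Among themselves, these 3 groups did not pass as neighbours in the order of levels.

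Cd40 encodes the receptor through which helper T cells license antigen-presenting cells. It was high on RB arrays, at 7.73, 8.11 and 8.42. GFW arrays had 6.49, 6.75 and 6.85, knockout-labelled arrays 6.58, 6.63 and 6.70, cultured arrays 5.82, 6.35 and 6.65, and MDSC arrays 6.09, 5.96 and 5.92. RB arrays lay above every other array. Cd40 was 2.62-fold higher on RB than on GFW arrays (log2 difference 1.39, SE 0.19, adjusted p = 2.01e-05) and 4.28-fold lower on MDSC than on RB arrays (adjusted p = 1.67e-07). MDSC lay 1.63-fold below GFW (adjusted p = 0.00462). Culture against GFW gave -0.42 (adjusted p = 0.0617). With 1 array left out it ran from -0.61 without cultured replicate 3 (adjusted p = 0.0128) to -0.20 without cultured replicate 1 (adjusted p = 0.343), and it also passed without GFW replicate 1 (-0.53, adjusted p = 0.042).

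Tnfsf9 encodes 4-1BBL, the ligand of the co-stimulatory receptor 4-1BB. RB arrays had 7.98, 8.08 and 8.20, GFW arrays 8.03, 7.96 and 8.26, knockout-labelled arrays 7.72, 7.67 and 8.03, cultured arrays 7.64, 7.86 and 7.14, and MDSC arrays 6.82, 6.25 and 7.35. The MDSC arrays spread widest (SD 0.55) and the third overlapped the cultured arrays. Tnfsf9 was 2.42-fold lower on MDSC than on GFW arrays (adjusted p = 0.000144) and 2.43-fold lower than on RB arrays (adjusted p = 0.000189). Culture against GFW gave -0.54 (SE 0.23, adjusted p = 0.0472), and this call ended under 10 other settings, with adjusted p up to 0.221. They include the fits without cultured replicate 1 or 3 and those without any of the 3 GFW arrays, the highest p being that without cultured replicate 3.

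Havcr2 encodes TIM-3, an inhibitory receptor of exhausted T cells that myeloid cells carry too. RB arrays had 8.37, 8.54 and 8.0, knockout-labelled arrays 7.47, 7.44 and 7.61, MDSC arrays 7.58, 7.23 and 7.23, GFW arrays 7.48, 6.63 and 7.17, and cultured arrays 6.72, 6.57 and 6.94. RB arrays lay above all others, and GFW arrays, which spread most (SD 0.43), overlapped the 3 other groups. Havcr2 was 2.31-fold higher on RB than on GFW arrays (log2 difference 1.21, SE 0.19, adjusted p = 8.28e-05) and 1.94-fold lower on MDSC than on RB arrays (adjusted p = 0.000600). Culture against GFW gave -0.35 (adjusted p = 0.117). Without GFW replicate 2, the lowest GFW array, this became -0.58 (adjusted p = 0.0092), and it ran to -0.16 without GFW replicate 1. It also passed with a second quantile normalization (-0.51, adjusted p = 0.029) and with centring over the genes tested (-0.66, adjusted p = 0.0051). Knockout-labelled against GFW gave 0.41 (adjusted p = 0.413).

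Pvr encodes CD155, which binds the stimulating receptor CD226 and the inhibitory receptors TIGIT and CD96. Its levels fell into a high and a low set of groups. RB arrays had 7.97, 8.05 and 8.0, cultured arrays 7.68, 8.07 and 8.05, and MDSC arrays 7.95, 7.39 and 7.59. Knockout-labelled arrays had 6.68, 5.66 and 6.16, and GFW arrays 5.94, 5.53 and 5.20. The 9 arrays of the first 3 groups lay above the 6 of the others. On GFW only 1 of 3 arrays exceeded the 40th percentile, so that low level sits near the floor of the measurement. The fitted differences from GFW were 2.38 in culture (SE 0.23, adjusted p = 1.66e-07), 2.45 on RB (adjusted p = 3.21e-07) and 2.08 on MDSC arrays (adjusted p = 9.00e-07). With the GFW arrays under the 40th percentile raised to it, Pvr was at least 4.77-fold higher in culture, 5.02-fold on RB and 3.90-fold on MDSC arrays. Knockout-labelled against GFW arrays gave 0.61 (adjusted p = 0.267), and RB, cultured and MDSC arrays did not pass against each other as neighbours in the order.

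**Figure D2:**
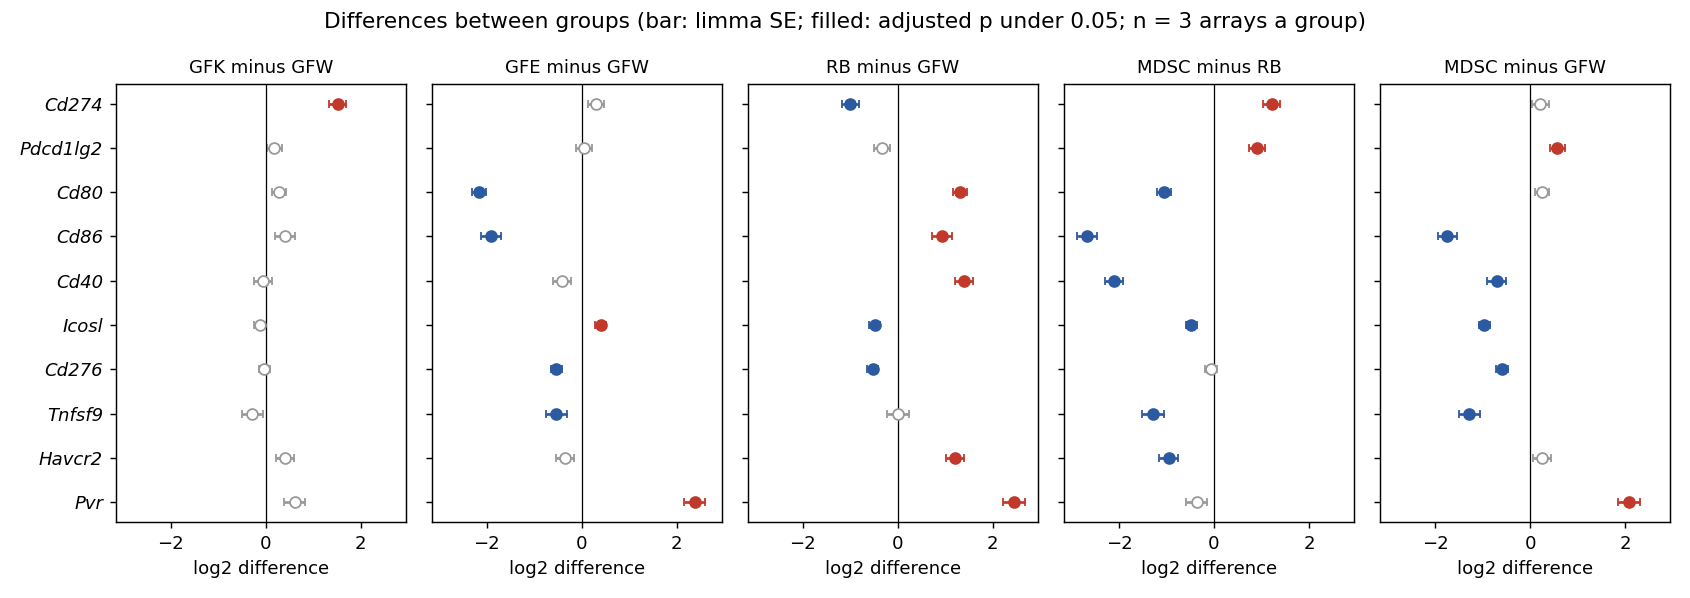
Log2 difference of each of the 10 members in the 5 comparisons, with limma's standard error as the bar; filled points passed an adjusted p of 0.05. Cd274 is the called member for knockout-labelled minus GFW (1.52), Cd80 (-2.17) and Cd86 (-1.91) are lower and Pvr (2.38) higher in culture, and MDSC minus RB is negative for 8 of 10 members.

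The members' calls were then counted by comparison, beside the share of all 14822 genes tested that were called. The comparisons share arrays and are not independent. On arrays labelled knockout against GFW, 1 of 10 members was called, Cd274, and it was higher, where 1.61% of all genes were called, 1.30% higher and 0.317% lower. It was also the 1 member whose groups did not overlap, which held for 16.2% of genes. The other 9 differences ran from -0.28 for Tnfsf9 to 0.61 for Pvr. In culture against GFW, 6 of 10 members were called, 2 higher (Pvr and Icosl) and 4 lower (Cd80, Cd86, Cd276 and Tnfsf9), where 67.0% of all genes were called, 35.1% higher and 31.9% lower. The groups did not overlap for 7 members and for 74.2% of genes. The members' shares were near those backgrounds. The members' split moved with the scaling. It was 1 higher and 6 lower with a second quantile normalization, where 4739 of all genes were higher and 4625 lower. With centring over the genes tested it was also 1 and 6 (all genes 3891 and 7694). With each array minus its median it was 3 and 3 (all genes 5783 and 3286). As deposited, the members' median was -0.39 against -0.06 over all genes.

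Between the 2 identically labelled sets, RB minus GFW, 8 of 10 members were called, 5 higher and 3 lower, where 52.4% of genes were called, 25.8% higher and 26.5% lower. The groups did not overlap for 9 members and for 55.1% of genes. Cd80, Cd86, Cd40, Havcr2 and Pvr were higher on RB arrays, and Cd274, Icosl and Cd276 lower. The median was 0.47 against -0.06 over all genes. For MDSC minus RB, 8 of 10 members were called, where 48.1% of genes were called, 27.4% higher and 20.7% lower, and 9 did not overlap, against 55.4% of genes. The called members were Cd274 and Pdcd1lg2, which were higher, and Cd80, Cd86, Cd40, Icosl, Tnfsf9 and Havcr2, which were lower, with a median of -0.72 against 0.04. For MDSC minus GFW, 7 of 10 were called, where 62.2% of genes were called, 32.3% higher and 30.0% lower, and 8 did not overlap, against 70.6% of genes. The called members were Pdcd1lg2 and Pvr, which were higher, and Cd86, Cd40, Icosl, Cd276 and Tnfsf9, which were lower, with a median of -0.19 against -0.08. Thus Cd274, Cd80 and Havcr2 passed for MDSC against RB but not against GFW, where they gave 0.22, 0.26 and 0.25. Pdcd1lg2 was higher on MDSC arrays against each wild-type set, and Cd86, Cd40, Icosl and Tnfsf9 were lower against each. Of the 5 further pairs of groups, used above for the order of levels, 65.8% of genes were called for knockout-labelled against cultured, 50.5% for knockout-labelled against RB, 54.1% for RB against cultured, 35.5% for MDSC against cultured and 60.9% for MDSC against knockout-labelled arrays. The members called there were 7, 9, 6, 5 and 8 of 10. With the RB arrays, which stand apart in the markers above, left out of the fit, 1 member was called on knockout-labelled against GFW arrays, 7 in culture (Cd274 and Cd40 gained a call and Tnfsf9 lost its own) and 7 for MDSC minus GFW. In that fit 303, 10372 and 9656 of all 14822 genes were called, in the same order.

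The other genes of the same pathways were read from lists. Of 18 tested genes of 20 listed for interferon gamma signalling, a pathway known to raise Cd274, 8 were higher and 0 lower on knockout-labelled than on GFW arrays (background 1.30% higher), with a median of 0.18 against -0.01 over all genes. Gbp5, a guanylate-binding protein of the interferon response, rose by 2.20 (adjusted p = 2.28e-06), the T cell chemokines Cxcl9 and Cxcl10 by 1.70 and 1.51, and Igtp, an interferon-inducible GTPase, by 1.17. In the other comparisons most called genes of this list were lower: 12 of 13 in culture (median -0.92), 10 of 12 for RB minus GFW (median -0.49), 15 of 17 for MDSC minus RB (median -1.31) and 16 of 17 for MDSC minus GFW (median -1.69). Over all genes the share called lower was 31.9%, 26.5%, 20.7% and 30.0% in the same order, and the medians were -0.06, -0.06, 0.04 and -0.08. The list also holds Cmtm4, Cmtm6, Stat3 and Socs3, which are not particular to interferon gamma. Cmtm6 and Socs3 are among the lower genes in each of these comparisons, in culture with -1.50 and -4.50. Against GFW, Cxcl9 fell by 2.35 in culture and by at least 2.51 on MDSC arrays; in each lower group 2 of 3 arrays lay above the 40th percentile, and arrays below it were raised to it for the second value. Cd274 itself did not pass in those 2 comparisons (0.30 and 0.22) and was lower on RB than on GFW arrays. For MDSC minus RB, Cd274 went the other way from most called genes of the list, at 1.22 (adjusted p = 2.67e-05).

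Of 12 tested genes of CD40 and NF-kB signalling, 10 were lower and 0 higher on MDSC than on RB arrays (median -1.24), where 20.7% of all genes were lower and 27.4% higher (median 0.04), among them Tnfaip3, an inhibitor of NF-kB, with -2.68, Birc3 with -2.08 and Nfkbia with -1.92. Cd40 was 4.28-fold lower there. On RB against GFW arrays 6 were higher and 2 lower (median 0.44), where 25.8% of all genes were higher and 26.5% lower (median -0.06), with Tnfaip3 at 1.95 and the NF-kB subunit Rel at 1.22, and Cd40 was higher too. On knockout-labelled arrays 2 were higher and 0 lower (median 0.24; all genes 1.30% higher and 0.317% lower, median -0.01), Tnfaip3 by 0.95 (adjusted p = 0.00208) and Nfkbia by 0.54 (adjusted p = 0.0149), where Cd40 gave -0.06 (adjusted p = 0.946).

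Of 22 tested genes for other B7, butyrophilin and checkpoint ligands, 1 was higher and 0 lower on knockout-labelled arrays (all genes 1.30% and 0.317%), Icam1, an adhesion molecule, by 0.81 (adjusted p = 0.0221). In culture 4 were higher and 13 lower (median -0.41), where 35.1% of all genes were higher and 31.9% lower (median -0.06). Vsir, which encodes the checkpoint ligand VISTA, fell by 3.60 (adjusted p = 9.18e-14) and Ceacam1, a ligand of TIM-3, by 3.71 (adjusted p = 1.14e-12). Cd200 rose in culture by at least 1.25, with the GFW arrays raised to the 40th percentile. On MDSC arrays Vsir gave -1.79 against RB and -1.88 against GFW, while Cd200r1 and Cd24a each rose by 1.43 against RB and Cd48 by 1.61 against GFW. Against RB 4 genes were higher and 11 lower (median -0.20; all genes 27.4% and 20.7%, median 0.04), and against GFW 4 were higher and 10 lower (median -0.23; all genes 32.3% and 30.0%, median -0.08). For RB minus GFW 6 were higher, a share near the 25.8% of all genes, and 10 lower (median -0.23; all genes 26.5% lower, median -0.06).

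**Figure D3:**
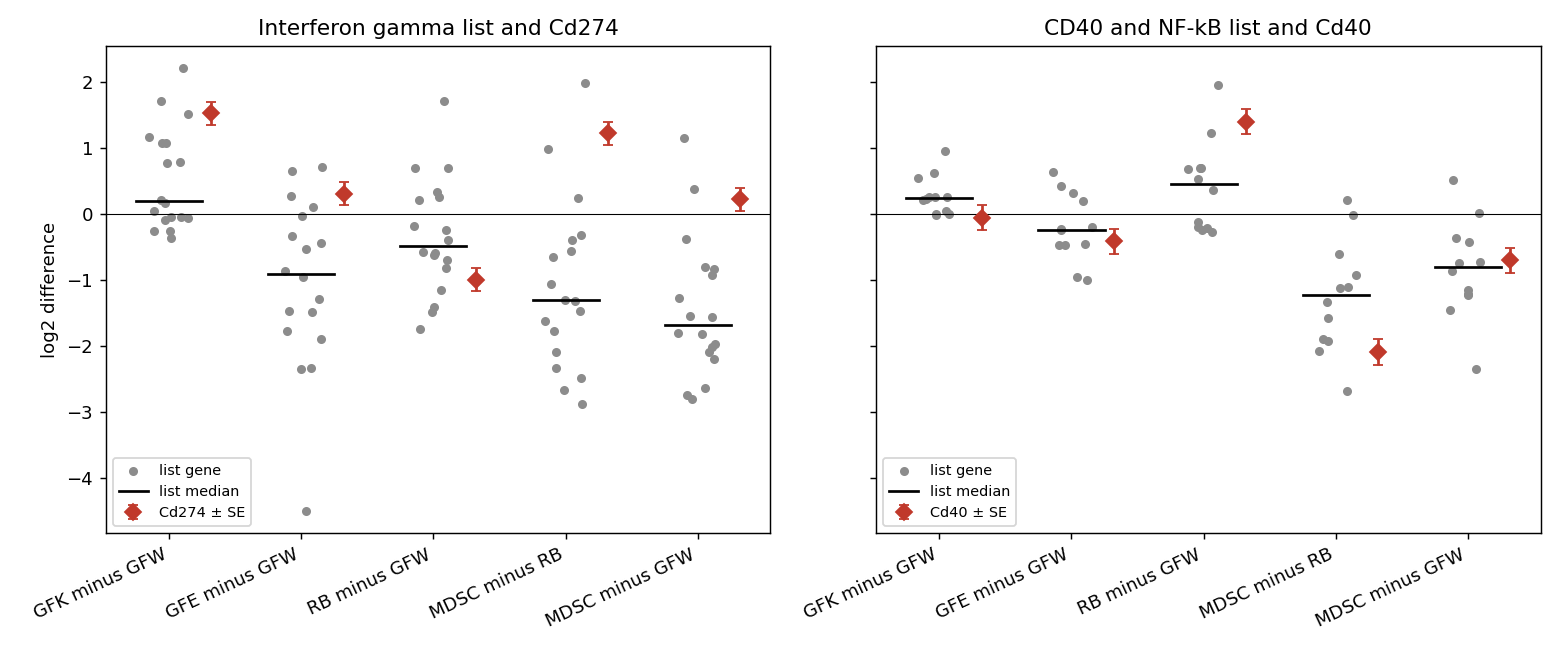
Log2 difference in the 5 comparisons of each tested gene of the interferon gamma list (left, 18 grey points, with Cd274 as a red diamond with SE) and of the CD40 and NF-kB list (right, 12 grey points, with Cd40 as a red diamond with SE); black lines are list medians. Cd274 lies above the interferon list's median in every comparison except RB minus GFW, and the CD40 and NF-kB median is lowest for MDSC minus RB (-1.24), where Cd40 is lowest too (-2.10).

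Markers of cell types moved between the groups as well, and their part in the members' differences was not tested. The summed signal of 9 monocyte markers lay at 14.95 to 14.97 log2 on RB arrays, where Cd80, Cd86, Cd40 and Havcr2 were highest, at 12.92 to 13.06 on GFW, 13.22 to 13.29 on knockout-labelled and 12.97 to 13.06 on MDSC arrays, and at 10.73 to 10.89 on cultured arrays, where Cd80 was lowest. Neutrophil markers lay at 15.39 to 15.44 on GFW and 15.35 to 15.40 on knockout-labelled arrays, where Pvr was lowest and Cd276 highest. They lay at 14.19 to 14.27 on MDSC, 13.22 to 13.39 on RB and 9.45 to 9.53 on cultured arrays. Ltf and Camp had means of 11.20 and 10.13 on MDSC arrays, against 8.40 and 6.36 on GFW arrays. The other genes of this list had lower means on MDSC than on GFW arrays. Macrophage markers lay at 11.45 to 11.58 on cultured arrays and at 12.53 to 13.09 on the others. Not every gene of the list followed the sum. Marco (mean 7.56 against 5.43), C1qc (5.66 against 5.40) and Apoe (6.56 against 6.41) were higher on cultured than on MDSC arrays, and the rest lower. Marco (5.94 on GFW arrays) and Maf (8.46 against 7.52) were higher on cultured than on GFW arrays, and the rest lower. B and plasma cell markers, of which 8 of 8 measured lay above the 40th percentile on knockout-labelled and on GFW arrays and 4 of 8 on RB and MDSC arrays, had a higher sum on knockout-labelled arrays, 13.29 to 13.32, than on GFW arrays, 12.01 to 12.20. These 2 groups are those of the Cd274 difference of 1.52. Between them, the macrophage sums did not overlap either, at 12.68 to 12.88 on knockout-labelled and 12.53 to 12.61 on GFW arrays, and the monocyte sums given above were also higher on knockout-labelled arrays. In the macrophage list Cd68 (mean 11.61 against 11.67 on GFW arrays) and Adgre1 (9.66 against 9.79) were lower on knockout-labelled arrays, and the other genes higher. The monocyte list was mixed between these groups as well. Ccr2 (mean 7.49 against 8.19 on GFW arrays), Ly6c2 (11.53 against 11.70) and Fn1, below the 40th percentile in both groups, were lower. Its other genes were higher, among them Nr4a1 (11.23 against 10.57) and Treml4 (11.19 against 10.45). Dendritic cell sums were lower on knockout-labelled than on GFW arrays, at 12.04 to 12.16 against 12.26 to 12.36, and T and NK cell sums too, at 9.19 to 9.31 against 9.40 to 9.46. Progenitor markers lay at 13.05 to 13.14 in culture, 11.72 to 11.85 on GFW, 11.60 to 11.71 on knockout-labelled, 10.37 to 10.52 on MDSC and 8.83 to 9.13 on RB arrays. Kit was lower in culture (mean 10.85) than on GFW arrays (11.43), and the list's other genes were higher in culture. Dendritic cell markers differed less, with sums from 11.62 to 12.41 over all arrays. T and NK cell markers summed to between 8.29 and 9.46, with at most 5 of 7 above the 40th percentile in a group. Mast cell, basophil and eosinophil markers summed to 9.88 to 10.27 on MDSC arrays, where Pdcd1lg2 was highest, and to 7.84 to 9.63 on the others. This list did not move together. On MDSC arrays 5 of 7 lay above the 40th percentile, with Prg2 (mean 8.95) and Mcpt8 (8.10) the highest. Siglecf was lower on MDSC arrays (5.88) than on GFW (8.86) or knockout-labelled arrays (8.47). Ms4a2 and Fcer1a had means below that percentile in every group.

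Over the 15 arrays, genes with a pattern most like each member's were found by Pearson's r among 13497 named genes. These r describe 5 groups of 3 arrays and mostly follow the group means. Likest to Cd80 were Hip1 (r = 0.983), Apaf1 (0.979) and Adgre1 (0.977), the last a marker of macrophages. Likest to Cd86 were Tln1, Gpr65 and Mef2a (0.980, 0.980 and 0.978), and to Cd40 Ikbkb (0.959), an NF-kB kinase, Abcc2 (0.952) and Ica1l (0.951). For Pvr they were Ino80, Map2k5 and Ctnnd1 (0.961, 0.961 and 0.959), for Cd276 Dedd2, Nos3 and Snph (0.958, 0.951 and 0.948), and for Icosl Clip2, Marf1 and Kansl1l (0.943, 0.941 and 0.937).

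Lower values were the best found for Tnfsf9 (Ppp6r1, 0.935, Serinc5, 0.914, and Rxrb, 0.912), Havcr2 (Slc43a2, Myo1g and Atf3, each 0.921), Cd274 (Ppp4r3b, 0.892, Kidins220, 0.888, and Fam167a, 0.887) and Pdcd1lg2 (Fam181b, 0.883, Mir3091, 0.880, and Socs1, 0.879). Socs1 encodes an inhibitor of cytokine signalling and had means of 8.24 on MDSC and 6.26 on RB arrays. Among the members, the highest r was that of Cd80 with Havcr2 (0.814), followed by Cd86 with Tnfsf9 (0.762) and Cd86 with Cd40 (0.754). The lowest were Cd276 with Pvr (-0.861) and Pdcd1lg2 with Tnfsf9 (-0.741). Cd274 and Pdcd1lg2 had an r of 0.473.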

How the data were processed

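Total RNA (6 ug per sample, per the labels' protocols) was labelled and hybridised to single-colour Affymetrix arrays. The deposited values are on a log2 scale and were made by the authors with RMA in the oligo package, per the submitters' processing notes; their versions, and the build behind the probe sets, are not given in the labels or files used. RMA subtracts background, makes the arrays' distributions alike and summarises probes, which compresses differences of dim probe sets. Values ran from 2.21 to 14.07, array medians from 5.52 to 5.72, and no 2 arrays were identical (0 pairs).

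A single gene symbol is listed for 23521 of 41345 probe sets, which were used; 1814 list several and 16010 list none. Gene identifiers tied 23328 of those used to RefSeq's table for GRCm38.p6. The probe set with the highest mean was kept per gene, giving 22180 genes, of which 1082 had several. A gene was tested if it exceeded the 40th percentile of the array on at least 3 arrays, which left 14822.

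One limma model (version 3.58.1, R 4.3.3, functions lmFit and eBayes) held the 15 arrays with a term for each group; it had 10 degrees of freedom from residuals and 5.33 from the prior. Its 2-sided p-values were adjusted by Benjamini-Hochberg across the genes tested, with calls made under 0.05, and each SE comes from it. Other steps and the figures used matplotlib 3.10.9, pandas 2.3.3 and numpy 2.4.6 under Python 3.11.15. In data simulated for knockout-labelled minus GFW with 14822 genes, the fit recovered 86 of 100 genes changed by 1 log2 and 100 of 100 changed by 2.

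The members, the gene and marker lists and the tests were chosen with earlier results of these data known. Named genes were all members, Nos2, at most the 4 called genes with the largest difference per list and comparison and further list genes with their values, and the 3 genes most alike in pattern to each member (gene models without a name left out). The alternatives covered scaling, the filter, the arrays fitted, single arrays left out and the replicate number as a block, for the 5 comparisons; other pairs of groups were tested in one setting. Same-numbered arrays of different groups did not deviate together: over 30 pairs r ran from -0.129 to 0.0966, so the numbers were not taken as pairs. Monocytes and progenitors of untreated mice, which the study's design names, were not analysed here.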

Additional observations from a re-analysis of the deposited data

How the results depend on the processing

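Of the 30 calls of members in the 5 comparisons, 27 held in every setting run. The 3 others were Icosl and Tnfsf9 in culture and Pdcd1lg2 for MDSC minus GFW. Tnfsf9 ran from an adjusted p of 0.00223 to 0.221. Calls were gained in 14 cases: Cd40 in 6 settings, Cd274 in 3 and Havcr2 in 3 in culture, Pdcd1lg2 in 1 for RB minus GFW and Cd80 in 1 for MDSC minus GFW. Cd274 in culture passed with each array minus its median (0.44, adjusted p = 0.045), with only the 6 arrays compared (adjusted p = 0.028) and without the RB arrays (adjusted p = 0.027). Cd40 passed with a second quantile normalization (adjusted p = 0.041), with centring over genes tested (adjusted p = 0.0036) and without the RB arrays (adjusted p = 0.040). Pdcd1lg2 passed with centring over genes tested (-0.48, adjusted p = 0.022) and Cd80 with each array minus its median (0.38, adjusted p = 0.045). The limit of these data is 3 arrays per group of unstated origin. Genes called for knockout-labelled minus GFW numbered 239 with all 15 arrays, 74 with only the 6 arrays compared, 133 to 183 with 1 array left out, and 303 without the RB arrays; the cause was not tested. They were 133 without GFK replicate 3 and 150 without GFW replicate 3, and Cd274 stayed the 1 called member in each.

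Centring each array on its median over genes tested, chosen after seeing the data, moved the median of all genes from -0.06 to -0.38 in culture, from -0.08 to -0.34 for MDSC minus GFW and from -0.06 to -0.20 for RB minus GFW. Genes called higher and lower then numbered 3891 and 7694 in culture (5198 and 4733 as deposited), 3729 and 7401 for MDSC minus GFW (4781 and 4444), 3099 and 5635 for RB minus GFW (3831 and 3929) and 3304 and 3999 for MDSC minus RB (4057 and 3073). With each array minus its median over all probe sets they were 5783 and 3286, 5306 and 3094, and 4112 and 3201 for the first 3.

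Changes of sign touched only values that were not called. With the median over genes tested, Cd274 gave -0.011 and Pdcd1lg2 -0.27 in culture, Tnfsf9 -0.14 for RB minus GFW, and Cd274 -0.045, Cd80 -0.0021 and Havcr2 -0.0082 for MDSC minus GFW. With a second quantile normalization Tnfsf9 gave -0.17 for RB minus GFW and Cd274 -0.0077 for MDSC minus GFW. With 1 array left out, Cd40 ran from -0.17 to 0.018 and Cd276 from -0.067 to 0.023 for knockout-labelled minus GFW, Pdcd1lg2 from -0.083 to 0.12 in culture, Tnfsf9 from -0.056 to 0.092 for RB minus GFW and Cd276 from -0.19 to 0.0050 for MDSC minus RB. The cause was not tested.

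With the replicate block, 202, 9907, 7634, 7044 and 9116 genes and 1, 6, 8, 8 and 7 members were called for knockout-labelled minus GFW, culture, RB minus GFW, MDSC minus RB and MDSC minus GFW; in culture Tnfsf9 lost its call (adjusted p = 0.0505) and Cd40 gained it (0.0298). Of the 15 arrays, 4 correlated best with their own number.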

Other observations

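Receptors on T cells that bind the proteins above or their relatives were also measured, 9 of 13 of them at a level that was tested. The T cell markers Cd3e and Cd3g had means below the 40th percentile in every group. Other genes of the T and NK cell list did not. Cd4 and Nkg7 had means above it in every group, with Nkg7 at 8.37 on MDSC arrays. Cd8a, Klrd1 and Ncr1 exceeded it in some groups, with Klrd1 at 7.85 on GFW arrays. The part of T or NK cells in the receptors' levels was not tested. In culture 3 receptors were called higher and 2 lower (all genes 35.1% and 31.9%), and for RB minus GFW 0 and 2 (25.8% and 26.5%). For MDSC minus RB 2 and 0 were called (27.4% and 20.7%), and for MDSC minus GFW 1 and 3 (32.3% and 30.0%). Tnfrsf18 gave -2.07 for RB minus GFW and -0.96 in culture. Cd28, the receptor of CD80 and CD86, was higher on MDSC than on RB arrays by 2.32 (adjusted p = 6.21e-08) and than on GFW arrays by 2.43 (adjusted p = 2.21e-08), with a mean of 8.39 on MDSC arrays. In culture Cd96, a receptor of CD155, had a mean of 8.69 (adjusted p = 4.50e-12 against GFW). On GFW it lay below the 40th percentile on all 3 arrays (mean 4.95), so the rise is given as at least 8.82-fold, with the GFW arrays set to that percentile. Cd27, a co-stimulatory receptor of the TNF receptor family, rose by 2.73 (adjusted p = 2.75e-08).

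Among TNF superfamily ligands for T cells, 9 of 15 were tested. For knockout-labelled minus GFW 1 was called higher and 0 lower (all genes 1.30% and 0.317%). In culture 4 and 4 were called (35.1% and 31.9%), and for RB minus GFW 1 and 2 (25.8% and 26.5%). For MDSC minus RB 4 and 2 were called (27.4% and 20.7%), and for MDSC minus GFW 3 and 3 (32.3% and 30.0%). Tnfsf4, which encodes OX40L, had a mean of 8.37 in culture (adjusted p = 1.68e-10 against GFW). On GFW it lay below the 40th percentile on all 3 arrays (mean 4.66), so that it was at least 7.08-fold higher in culture by the same bound. Tnfsf14, which encodes LIGHT, fell in culture by at least 3.39 (adjusted p = 2.76e-08), with 2 of 3 cultured arrays above that percentile. The drop was not particular to culture. Against GFW, Tnfsf14 was also lower on RB arrays by at least 3.13 (adjusted p = 9.98e-08) and on MDSC arrays (-2.83, adjusted p = 2.94e-07). Tnf, the cytokine TNF, was higher on knockout-labelled than on GFW arrays by 1.88 (adjusted p = 1.17e-06), with means of 10.38 and 8.51, and higher on MDSC than on RB arrays by 1.34 (adjusted p = 3.53e-07). Against GFW, Tnf was also higher on MDSC arrays by 1.51 (adjusted p = 5.18e-08) and in culture by 0.91 (adjusted p = 1.45e-05). RB minus GFW gave 0.18 (adjusted p = 0.268).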
